A study of Homo sapiens with 6 samples.

Results

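The hairpins described here target 13 genes of the machinery that licenses and copies DNA: MCM2 to MCM7, ORC1, ORC2, CDC6, RPA1, RPA3, FEN1 and DNA2. Hairpins were taken by gene symbol alone, for genes chosen with earlier results of these data known. In all, 104 hairpins, 8 for each gene, were found among the 7293 hairpins against 912 genes that had counts in the screen. The screen was carried out in SKK-1, a cell line from acute myeloid leukemia, which was transduced with the Epi9 pool of shRNAs against chromatin regulators. Of the 6 libraries, 3 came from untreated cells and 3 from cells given 0.25 µM azacitidine (AZA), a cytidine analogue that is built into nucleic acids and blocks DNA methyltransferases. Every library was taken from genomic DNA at day 14, and each of 3 separately transduced and puromycin-selected cultures was divided into an untreated and a treated culture, so that libraries of the same number form a pair. All cells in both arms carried the pool, no library from the starting pool or an early day was used here, and a single line was screened. Loss of a hairpin during culture and a low share at the start therefore cannot be told apart in what follows.

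Before S phase the origin recognition complex, which includes ORC1 and ORC2, sits at origins and, with CDC6, loads the ring of MCM2 to MCM7 onto DNA. The loaded ring licenses the origin and later becomes the helicase core that unwinds the parental strands. RPA1 and RPA3 are the large and small subunits of replication protein A, which coats the single strands exposed behind the helicase. FEN1 removes the short flaps left when Okazaki fragments are joined, and DNA2 is a nuclease and helicase that trims long flaps and resects stalled forks. These proteins are needed by proliferating cells in general, so hairpins that silence them well can be lost from a growing culture with or without drug.

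The guide is the antisense strand that the processed hairpin supplies, and bases 2 to 8 from its 5′ end form the seed that leads target recognition. Guide sequences from the study's library table were used for the 16 hairpins against CDC6 and DNA2, and each of the 16 target sites was found in transcripts of 1 gene in GENCODE 44. The number in a hairpin's name followed the position of its site in the transcript, with a shift of -15 bases for all CDC6 hairpins and 0 for all DNA2 hairpins. The 8 guides printed here are the hairpin with the smallest p for each gene, the least and most abundant CDC6 hairpins without drug, pairs whose sites overlap, and DNA2.1045 as an example of a site that spans an exon junction. Each is written 5′ to 3′ with the seed in capitals.
CDC6.488: tTGTCAAAtaccaatcttcgtc
CDC6.1800: tTCAATCTtgaaaaacaccttt
CDC6.1812: tATTTCTTtctcttcaatcttg
CDC6.2147: tACACTTGcaagcacattggct
DNA2.1045: tAGAGTGTacagaacaacctga
DNA2.2557: tAACTGTAcaacagcactctta
DNA2.3737: tTAGAGTGaaaacacatctgat
DNA2.3738: tTTAGAGTgaaaacacatctga

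CDC6 lies on the plus strand at chr17:40287879-40304657 and DNA2 on the minus strand at chr10:68414064-68472121, both in GRCh38. The site of CDC6.488 is coding sequence in exon 3 of 12 (chr17:40291157-40291178), and that of CDC6.2147 is in the 3′ UTR (chr17:40302255-40302276). The sites of CDC6.1800, which spans the junction of exons 11 and 12, and CDC6.1812 (chr17:40301920-40301941) start 12 bases apart in coding sequence, so that their guides share bases but not the seed. The site of DNA2.2557 is coding sequence in exon 16 of 21 (chr10:68422538-68422559), and DNA2.1045 spans the junction of exons 6 and 7. DNA2.3737 (chr10:68414573-68414594) and DNA2.3738 (chr10:68414572-68414593) lie in the 3′ UTR and differ by a shift of 1 base, which moves the seed by 1 base as well. Of all 16 sites, 11 were in coding sequence and 5 in a 3′ UTR, and GC content ran from 18.2 to 45.5%.

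The deposited counts summed to between 12292575 and 19645459 in the untreated libraries and to between 18542022 and 22587662 under AZA, and the median hairpin held between 97.8 and 111 CPM, that is, counts put on the same total in every library. Between 29 and 102 hairpins had no count in a library. Replicates correlated modestly over all hairpins, with r on the log scale from 0.38 to 0.40 between untreated libraries and from 0.52 to 0.55 between AZA libraries. PCR reads carry no molecular identifiers, so depth bounds counting error only.

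Without drug the 104 hairpins held less of the pool than their number, and under AZA the shortfall was of the same size. They made up 1.43% of hairpins but 1.15, 1.07 and 1.22% of counts in untreated replicates 1, 2 and 3, which is 80.4, 74.8 and 85.5% of an even share. In AZA replicates 1, 2 and 3 they held 81.3, 85.2 and 81.5% of an even share. The arms overlapped, and the difference between them was smaller than the spread between untreated cultures. Hairpins against 35 genes of germ cells or other tissues, used for comparison, held 105 to 116% of an even share without drug, and those against 14 spliceosome genes 61.2 to 69.8%.

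The shortfall was uneven across roles. The 48 hairpins against the MCM ring held 59.5, 66.9 and 84.2% of an even share without drug and 75.6, 77.5 and 71.4% under AZA. The 24 hairpins against the loading factors ORC1, ORC2 and CDC6 held 127, 115 and 94.3% without drug and 116, 125 and 125% under AZA. Loading-factor hairpins were thus near or above an even share in every library, and in each library above the MCM hairpins. The 16 replication protein A hairpins held 71.5, 66.3 and 97.4% without drug and 51.5, 68.6 and 63.3% under AZA, and the 16 hairpins against FEN1 and DNA2 81.9, 47.1 and 64.1% and then 76.9, 65.5 and 65.1%.

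For each gene a level was taken as the median over its 8 hairpins of log2 of the CPM over the library's median hairpin, and it was averaged over 3 libraries. Without drug 9 of 13 genes lay below the median hairpin, CDC6 only just, and MCM7, ORC1, ORC2 and RPA3 lay above it. CDC6, the highest of the 9, ranked 473 from the lowest of 912 genes. All genes of the pool up to that rank thus also lay below the median hairpin. RPA1 was lowest, with levels of -4.26, -0.59 and -0.90 in replicates 1, 2 and 3 and a mean of -1.92 ± 2.04 (SD, n = 3), which is 26.5% of the median hairpin and rank 14 from the lowest of 912 genes. MCM5 followed at -1.21 ± 0.46 (rank 59), then MCM4 at -0.93 ± 0.85, MCM2 at -0.81 ± 0.15, DNA2 at -0.69 ± 0.78, MCM6 at -0.62 ± 0.34, MCM3 at -0.58 ± 0.52 and FEN1 at -0.54 ± 0.81. From RPA1 down this list each gene differed from the next by less than the larger of their SDs, so the order of neighbours was not resolved. CDC6 stood at -0.003 ± 0.72 and MCM7 at 0.04 ± 0.46. RPA3 at 0.38 ± 0.56, ORC1 at 0.36 ± 0.16 and ORC2 at 0.44 ± 0.36 were the highest, and ORC2 ranked 719 of 912. All 8 hairpins of MCM2, 7 of MCM5 and 7 of RPA1 had a mean level below the median hairpin without drug, against 3 of ORC1 and 3 of RPA3. The same count for all genes is not given here.

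RPA1 and MCM5 stayed the lowest of the 13 genes under AZA, while MCM4 did not stay low. RPA1 was at -1.92, -0.94 and -2.85 in AZA replicates 1, 2 and 3 (mean -1.90 ± 0.95, SD, n = 3; rank 4 of 912), and MCM5 was at -1.26 ± 0.63 (rank 18). ORC2, at 0.28 ± 0.02, stayed above the median hairpin in all 3 AZA libraries. The level of RPA3 was 0.66, -0.26 and 0.75 without drug and -0.21, -0.48 and -0.67 under AZA, and the arms overlapped. MCM4 moved from -1.82, -0.82 and -0.14 without drug to 0.36, 0.05 and 0.24 under AZA, and MCM6 from -0.26, -0.93 and -0.66 to -0.13, 0.10 and -0.06. These 2 of 13 genes were above in all 3 AZA libraries, as were 7.89% of all genes, and none was below in all 3, as were 7.89% of all genes. By the mean over hairpins instead, the log2 change in pairs 1, 2 and 3 was 1.23, 0.21 and -0.11 for MCM4. For MCM6 it was 0.16, 1.69 and 1.71. With 3 libraries against 3 and the pairing set aside, the exact two-sided permutation test cannot go below p = 0.10. Keeping the pairs leaves fewer arrangements, so the floor is then higher.

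A hairpin was called scarce in a library where it fell under 10% of that library's median hairpin. Among the 104 hairpins 9, 17 and 12 were scarce in untreated replicates 1, 2 and 3 (8.65, 16.3 and 11.5%), against 7.50, 10.5 and 9.79% of all hairpins. In AZA replicates 1, 2 and 3 the members counted 5, 7 and 8 (4.81, 6.73 and 7.69%), against 2.08, 3.03 and 2.76% of all hairpins. Scarce hairpins were thus fewer in the AZA libraries both among the members and in the whole pool, and the members stood above the pool in each library. Of the germ cell or other tissue hairpins 5.02, 7.89 and 11.8% were scarce without drug and 1.08, 3.58 and 1.79% under AZA. The members were thus not above these in untreated replicate 3. The same hairpin was seldom scarce in every culture: 29 members were scarce in at least 1 untreated library (27.9%, background 21.4%) but 2 in all 3 (background 0.96%). Under AZA 15 were scarce in at least 1 library (14.4%, background 6.36%) and 1 in all 3 (background 0.288%). RPA1 gave 5 of the 29 and MCM5, MCM6 and MCM7 gave 4 each, while MCM4, ORC1 and RPA3 gave none.

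The 2 hairpins scarce in every untreated library were FEN1.796 and RPA1.912. FEN1.796 was at 0.569, 0.554 and 0.255 CPM in untreated replicates 1, 2 and 3, and at 188, 18.2 and 1.28 CPM in AZA replicates 1, 2 and 3. All AZA values lay above all untreated ones, but they ranged over more than the difference between the lowest AZA value and the untreated values. RPA1.912 was at 0.407, 5.99 and 0 CPM without drug and at 7.66, 12.2 and 16.4 CPM under AZA, low in all 6 libraries. MCM3.2621, scarce in all 3 AZA libraries, was at 32.4, 92.4 and 0 CPM without drug and had no count under AZA, which allows up to 0.162, 0.148 and 0.133 CPM in AZA replicates 1, 2 and 3. As it was also absent from untreated replicate 3, it did not separate the arms, and it was the member hairpin left out of the test for low counts.

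In the comparison of AZA with untreated cells, paired by culture, none of the 103 member hairpins tested passed an adjusted p of 0.05 with edgeR's quasi-likelihood test, where 0.0551% of all hairpins tested did. At an unadjusted p of 0.05 none was lower (background 3.37%) and 3 were higher (background 2.64%). DESeq2's Wald test on the same pairs called 7 of the 103 (6.80%) at an adjusted p of 0.05, 5 higher and 2 lower, and 8.34% of all hairpins, so its share among the members was no larger than in the pool. Over the 103 hairpins the log2 fold change averaged 0.38 with a median of 0.19, where all hairpins had a mean of 0.29 and a median of 0.08, and 43.7% of members (45 lower, 58 higher) were lower, against 46.1% of all hairpins. Without the pairing the member median was -0.10 and that of all hairpins -0.10, and the split turned to 59 members lower and 44 higher (57.3% lower, against 54.9% of all hairpins). All 3 AZA values lay above all 3 untreated ones for 10 members (9.62%, background 9.13%) and below for none (background 4.29%). The change had the same sign in all 3 pairs for 21 members that were higher (20.2%, background 18.9%) and for 7 that were lower (6.73%, background 10.7%). With TMM scaling of the levels, 7 members lay above in all AZA libraries (background 6.6%) and 3 below (background 6.57%), while 18 were higher in all 3 pairs (background 14.3%) and 9 lower (background 14.8%).

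Among the loading factors CDC6.488 had the smallest p of all members. It was at 56.9, 34.7 and 51.5 CPM in untreated replicates 1, 2 and 3 and at 124, 267 and 280 CPM in AZA replicates 1, 2 and 3. All treated cultures were above all untreated ones, with a log2 fold change of 2.01 (SE 0.69, edgeR adjusted p = 0.769). The other 7 CDC6 hairpins had log2 fold changes from -1.13 for CDC6.2920 to 1.62 for CDC6.1089 (SE 1.07). CDC6.1089 was also higher in all pairs, and within these errors its change was not told apart in size from that of CDC6.488. CDC6.1089 was at 19.5, 97.3 and 12.3 CPM without drug and at 101, 111 and 78.6 CPM under AZA, where 1 untreated value fell among the AZA values. CDC6.2920 was alike in all libraries but 1, with 40.7, 48.2 and 313 CPM without drug and 69.8, 32 and 32.2 CPM under AZA. A single untreated culture set its negative fold change.

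The overlapping pair CDC6.1800 and CDC6.1812 was abundant in all 6 libraries. CDC6.1812 was at 582, 418 and 266 CPM without drug and at 451, 575 and 601 CPM under AZA (log2 fold change 0.26, SE 0.34), and CDC6.1800 at 223, 245 and 92.2 and then at 237, 136 and 155 CPM (-0.17, SE 0.52). CDC6.1257 was at 185, 156 and 60.3 CPM without drug and at 284, 321 and 84.4 CPM under AZA. The third culture was lowest in each arm for that hairpin. CDC6.1491 was at 182, 216 and 37.5 and then at 106, 260 and 263 CPM. CDC6.2147, in the 3′ UTR, scattered most, with 109, 12.7 and 1.22 CPM without drug and 21.6, 9.26 and 58 CPM under AZA. Over its 8 hairpins CDC6 had a mean log2 fold change of 0.47 ± 0.99 (SD over hairpins), with 6 higher and 2 lower, and pair means of 0.06, 0.18 and 1.41.

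ORC1, the largest subunit of the origin recognition complex, had a mean log2 fold change of -0.11 ± 0.56 (SD over hairpins), with 4 of 8 hairpins higher. Its smallest p was that of ORC1.1471, at 14.6, 47.1 and 160 CPM without drug and 34.9, 30 and 8.1 CPM under AZA (log2 fold change -1.23, SE 1.62). The ranges overlapped. ORC2 averaged 0.21 ± 0.66 with 4 hairpins higher, and its smallest p was that of ORC2.978, among the most abundant member hairpins at 639, 354 and 333 CPM without drug and 290, 256 and 429 CPM under AZA (-0.58, SE 0.36, edgeR adjusted p = 0.882). ORC2.978 and CDC6.1812 were among the members with the smallest standard errors.

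All 6 MCM genes had a positive mean log2 fold change in the paired fit, from 0.31 ± 0.84 for MCM3 (7 hairpins tested) and 0.35 ± 0.53 for MCM2 through 0.45 ± 0.94 for MCM4 and 0.48 ± 1.24 for MCM7 to 0.97 ± 1.37 for MCM6 and 1.09 ± 2.14 for MCM5 (SD over hairpins). Most genes were positive in this fit, 617 of 912 (67.7%), and each MCM SD over hairpins was larger than its mean. Without the pairing the means of MCM2, MCM3 and MCM5 were -0.02, -0.29 and -0.18, so these 3 directions depended on the fit. The MCM5 mean rested on MCM5.2527, which was at 61.7, 1.44 and 0 CPM without drug and at 29.7, 127 and 17.2 CPM under AZA (log2 fold change 5.62, SE 3.19), and the median over MCM5's hairpins was 0.43.

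The hairpin with the smallest p in MCM6 was MCM6.2452, at 51.3, 5.6 and 13.7 CPM without drug and 97.2, 63 and 105 CPM under AZA (log2 fold change 2.31, SE 1.25, edgeR adjusted p = 0.852). Its AZA values lay above its untreated ones in all libraries. The same was true of MCM4.1622, at 19, 53 and 85.1 and then 138, 149 and 124 CPM (1.45, SE 0.87), and of MCM7.671, at 73.2, 25 and 0.102 and then 121, 86 and 225 CPM (2.69, SE 1.74). In MCM2 and MCM3 the smallest p belonged to MCM2.2639, at 35.8, 193 and 33.7 and then 124, 182 and 109 CPM, and to MCM3.3003, at 231, 169 and 304 and then 170, 160 and 218 CPM. The arms overlapped for both.

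RPA3 was the member gene with the most one-sided hairpins: 7 of 8 had a negative log2 fold change, with a mean of -0.54 ± 0.47 (SD over hairpins) that ranked 21 from the lowest of 912 genes, and a mean of -0.60 without the pairing. It was 1 of 13 members, and 32.1% of all genes, with 5 or more hairpins lower, while 7 of 13 members, and 46.1% of all genes, had 5 or more higher. The pairs did not all go the same way, with RPA3 means of -0.66, 0.19 and -1.12 in pairs 1, 2 and 3. No RPA3 hairpin had an unadjusted p under 0.05, and the smallest, for RPA3.1568, was 0.174. RPA3.1568 was at 164, 83.6 and 381 CPM without drug and at 200, 55 and 121 CPM under AZA (log2 fold change -0.82, SE 0.57), and RPA3.1554, whose name places its site 14 bases away, at 254, 79.3 and 306 and then 83.9, 107 and 188 CPM (-0.79, SE 0.56). Both were high in untreated replicates 1 and 3.

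The 2 RPA3 hairpins lower in all 3 pairs were RPA3.566, at 151, 79 and 136 and then 89.1, 76.1 and 77.3 CPM (-0.71, SE 0.73), and RPA3.850, at 172, 108 and 118 and then 129, 81.2 and 48.4 CPM (-0.87, SE 0.70). RPA3.125 was the most abundant, at 400, 393 and 294 CPM without drug and 158, 317 and 475 CPM under AZA. RPA3.299 was at 132, 100 and 53.8 and then 100, 46.4 and 55.5 CPM. The exception in sign was RPA3.1149, at 41.9, 32.1 and 205 and then 75.6, 257 and 63.6 CPM (0.59, SE 1.03), and RPA3.56 was the least abundant without drug, at 21.2, 14.2 and 114 and then 11.9, 61.1 and 25 CPM. No RPA3 hairpin was scarce in any of the 6 libraries. The study targeted RPA3 among essential genes to check its vector, and reported that such shRNAs were cytotoxic. The RPA3 hairpins in this pool were on average as abundant without drug as those of ORC1 and ORC2. Their knockdown and their share at the start were not measured here, so these levels say nothing about that control.

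RPA1, the partner subunit, was below RPA3 in level in each of the 6 libraries and had the most erratic hairpins of the 13 genes. The median over its hairpins of the SD of log2 levels between untreated cultures was 3.60, against 0.85 for RPA3 and 0.94 for all hairpins. Under AZA it was 1.75, against 0.76 and 0.56. MCM5 came close, at 3.15 without drug and 1.15 under AZA. Scarce hairpins have more counting error, and the part of depth in this spread was not tested. RPA1.1289 was at 0, 57.4 and 125 CPM without drug and at 51.9, 19.1 and 14.5 CPM under AZA, RPA1.1650 at 2.03, 0 and 82.7 and then 16.1, 0 and 9.61 CPM, and RPA1.2031 at 46.2, 0.166 and 11.3 and then 1.83, 30.5 and 47.3 CPM. These were chosen after their values were seen, and no culture lacked all of them. Of the 8 RPA1 hairpins 4, 3 and 1 were scarce in untreated replicates 1, 2 and 3, so the first culture held the most, where the level of the gene was also lowest.

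RPA1.2501 had the smallest p of the gene, and of all members with a negative change. It was at 115, 257 and 167 CPM without drug and at 67, 116 and 62.8 CPM under AZA (log2 fold change -1.27, SE 0.61, edgeR adjusted p = 0.816), lower in 3 of 3 pairs with ranges that just overlapped. RPA1.2500, named 1 base away, was at 54.1, 81 and 27.4 and then 84.7, 107 and 181 CPM (1.06, SE 0.91), higher in 3 of 3 pairs. RPA1.913 was at 13, 89.9 and 35.4 and then 0.162, 110 and 1.51 CPM (-3.97, SE 2.11). The mean over RPA1's 8 hairpins was 0.13 ± 2.42 (SD over hairpins), with 4 in each direction.

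Of the nucleases, DNA2 had 1 hairpin with an unadjusted p under 0.05. DNA2.2557 was at 92.4, 5.77 and 1.58 CPM without drug and at 113, 131 and 98.2 CPM under AZA (log2 fold change 3.66, SE 1.52, edgeR adjusted p = 0.806). The AZA cultures were alike, and the fold change came from untreated replicates 2 and 3, since untreated replicate 1 was close to the AZA values. DNA2.1045 was at 145, 21 and 68.6 and then 59.6, 2.76 and 86.5 CPM (-1.45, SE 1.16), low in the second culture of each arm. DNA2.3064 was lower in 3 of 3 pairs, at 82.2, 114 and 298 and then 64.2, 107 and 60.6 CPM.

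DNA2.4021, the DNA2 guide with the lowest GC content, was at 229, 136 and 96.6 and then 251, 98 and 88.6 CPM, with the order of the cultures the same in both arms. DNA2.2831 was at 93.5, 12.4 and 57.6 and then 78.2, 83.8 and 139 CPM, and DNA2.3022 at 47.6, 115 and 20.4 and then 31.6, 109 and 109 CPM. DNA2 averaged 0.36 ± 1.59 (SD over hairpins), with 4 hairpins in each direction. For FEN1 the mean was 0.70 ± 1.99 with 5 of 8 higher, and it rested on FEN1.796 (log2 fold change 5.01, SE 2.14, edgeR adjusted p = 0.809), as the median over FEN1's hairpins was 0.28.

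Hairpins named 1 base apart share nearly all of a site, but their seeds are shifted, so they are different guides and not repeats. By the numbers in their names, 10 pairs of member hairpins lay 1 base apart. Their mean levels without drug differed by a median of 1.66 on the log2 scale, against 1.62 for the 348 member pairs whose sites did not overlap. Over all genes the 350 pairs 1 base apart differed by a median of 0.78 and pairs with separate sites by 1.31. By these medians, member hairpins 1 base apart were no closer than hairpins at separate sites of the same gene, unlike those over all genes. The same medians are not given here for the comparison lists, and the share of each hairpin at the start is not known. The 10 differences ran from 0.19 to 6.40. The 6 member pairs 2 to 21 bases apart were closer, with a median of 0.73, against 1.22 over all genes. For most of these genes a position is known only from the name.

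The widest of these pairs was RPA1.912 and RPA1.913, at levels of -7.92 and -1.52, followed by MCM7.671 and MCM7.672, at -4.01 and 0.46, and MCM5.2527 and MCM5.2528, at -6.23 and -2.13. The closest was MCM4.3219 and MCM4.3220, at -0.34 and -0.53. For DNA2.3737 and DNA2.3738, whose guides are given above, the levels were -1.76 and -0.41. DNA2.3737 was at 36.4, 7.04 and 97.3 and then 92.6, 74.8 and 18.6 CPM, and DNA2.3738 at 73.9, 50 and 112 and then 111, 51.8 and 67.8 CPM. Both were lowest in the second untreated culture and highest in the third. The 11 coding-sequence sites of CDC6 and DNA2 had a median level of -0.74 without drug and the 5 sites in a 3′ UTR one of -0.41, with ranges from -3.38 to 2.02 and from -3.05 to 0.54 that overlapped over most of their length, although the highest coding-sequence site lay well above the highest 3′ UTR site.

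The remaining replication genes of the pool, 17 genes of origin marking, chromatin assembly, fork checkpoint and fork remodelling with 136 hairpins, were set beside the 13. They held 71.0 to 79.0% of an even share without drug and 73.4 to 76.4% under AZA. None of their hairpins passed an adjusted p of 0.05, and 4 were lower and 5 higher at an unadjusted p of 0.05. Their mean log2 fold change was 0.37 and their median 0.14, close to the 0.38 and 0.19 of the 13 genes. The lowest gene means were those of SUPT16H, at -0.57 ± 0.76, and RECQL4, at -0.46 ± 1.40, and the highest those of SSRP1, at 2.20 ± 3.38, and RTEL1, at 1.08 ± 1.77 (SD over 8 hairpins). The SSRP1 mean was 0.63 without the pairing and its median over hairpins was 0.67, both below the 0.64 and 0.82 of RTEL1. SUPT16H and SSRP1 are the subunits of the FACT histone chaperone, and in the paired fit they lay at opposite ends of this list.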

How the data were processed

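Hairpins were amplified from genomic DNA and sequenced. Per the labels, reads were handled with CASAVA 1.9 and the build named was GRCh37. The authors deposited raw counts per hairpin for each library, with no normalization, and the sources used here do not give how guides were matched. A hairpin missing from a library was set to 0 counts. CPM used the file total, and 0.5 counts were added before taking log2. The 7262 hairpins that exceeded 0.5 CPM in 3 or more libraries were fitted with edgeR 4.0.16 in R 4.3.3 (TMM scaling, quasi-likelihood test, replicate number as a block), with Benjamini-Hochberg adjustment over all of them. Each SE was derived as the size of the log2 fold change over the square root of the test's F, and was not itself fitted. The edgeR fit was tested on simulated data with less spread between replicates than these data, whose common dispersion was 0.55. That test does not show which changes could be found here. Pairing comes from the labels, which split each culture into both arms. Deviations of same-numbered libraries correlated at r = 0.13, 0.11 and 0.14, and other pairings at -0.10 to -0.03. Centring each library on its arm's mean pulls the other pairings negative when same-numbered ones are positive, so their sign is no separate support. DESeq2 1.42.0 was an alternative, as were other scalings, count filters and leaving out each library. Gene values are means or medians over hairpins, which share a target and are not replicates, so none has a test. Gene positions and guide sites come from GENCODE 44 (GRCh38). Guides of the other 11 genes were not used here.

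The genes, lists and tests were chosen with earlier results of these data known. Named hairpins were, by a set rule, all of CDC6, DNA2 and RPA3, the smallest p of each gene, those scarce in all untreated libraries, and those with an unadjusted p under 0.05. The hairpin scarce in all AZA libraries, the remaining members of closely placed pairs and the RPA1 hairpins other than RPA1.2501 and RPA1.912 were named after their values were seen.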

Additional observations from a re-analysis of the deposited data

How the results depend on the processing

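The number of member hairpins with an adjusted p under 0.05 was 0 in every edgeR fit, including the fit without the replicate block and those that left out 1 library (lowest and highest 0), and 7 with DESeq2's Wald test. The mean log2 fold change over the member hairpins, 0.38 in the paired fit, was 0.54 with library totals, 0.0229 with no replicate block and 0.19 as a median over hairpins. Leaving out 1 library gave 0.36 to 0.54. The median of all hairpins was 0.08 in the paired fit, 0.24 with library totals and -0.10 without the block. RPA3 was negative in all 14 settings, from -0.89 to -0.23, and MCM6 positive in all 14, from 0.61 to 1.67. CDC6, DNA2, FEN1, MCM4 and MCM7 were also positive in all 14, and in the paired fit 67.7% of all genes were positive. The same over all settings is not given for all genes. With no count filter, which admits MCM3.2621, the mean of MCM3 was -1.25. The count of members scarce in all 3 untreated libraries, 2, was 1 at a hundredth of the median, 7 when at least 2 of 3 libraries sufficed, and 2 to 6 when an untreated library was left out, with 6 without untreated replicate 1. Member genes below the median hairpin without drug numbered 9 to 12 under the alternatives run, and the same count for all genes is not given here. With 3 cultures an arm, standard errors of single member hairpins ran from 0.31 to 4.87 on the log2 scale, so changes within such errors were not detectable. The causes of these shifts were not tested.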
